A study of Mus musculus with 12 samples.

Results

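The genes that build cholesterol and fatty acids were followed in RNA sequencing of bone marrow derived macrophages, which are macrophages grown from mouse marrow. The set holds 33 genes, chosen by name from the mevalonate and sterol pathway, from its SREBP control system, and from fatty acid synthesis and desaturation. Each of the 33 matched 1 of the 55891 identifiers in the count table, and all 33 passed the filter on low counts. They divide into 18 sterol and mevalonate enzymes, 6 genes of SREBP control and sterol transport, and 9 fatty acid genes. Marrow cells were cultured for 6 days with M-CSF at 10 ng/mL. Donor mice were wild type (WT, with titles that begin with B6) or knockout (KO) for Ptprz1, which encodes a receptor protein tyrosine phosphatase. The strain field gives one targeted Ptprz1 line for all samples, WT included, so it does not separate the genotypes. Cells of either genotype received no stimulus (control), LPS at 100 ng/mL together with IFNγ at 10 ng/mL for 24 h, or IL-4 at 20 ng/mL for 24 h. Each of the 6 groups had 2 libraries, 12 in all. The labels do not say whether the libraries of a group came from separate mice or cultures, so the tests measure only the spread between these libraries, which may be technical.

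Cholesterol synthesis starts from acetyl-CoA, runs through mevalonate and isoprenoid diphosphates to squalene, and then closes and trims the sterol rings. Its enzymes are transcribed under SREBP-2, while SREBP-1 acts mainly on fatty acid genes. SCAP escorts both factors out of the endoplasmic reticulum when sterols are low, and INSIG proteins hold the complex back when sterols are plentiful. Macrophages take up much sterol from other cells, and their sterol and fatty acid synthesis is known to change with inflammatory activation.

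Promoter letters are shown for 4 members, in each arm 1 that fell and 1 that did not pass the test after LPS+IFNγ in the results that follow. Each sequence is the 250 bases before a RefSeq start site (GRCm38.p6), read 5′ to 3′ on the gene's strand, and no exon of the GENCODE M21 annotation enters these windows. Capitals mark the sterol regulatory element core (TCACNCCAC) and the CCAAT box (CCAAT, which reads ATTGG on the other strand). Hmgcs1 (chr13:119690101-119690350, plus strand) and Mvd (chr8:122443423-122443672, minus strand) are the sterol examples, and Fasn (chr11:120824548-120824797, minus strand) and Acly (chr11:100528001-100528250, minus strand) the fatty acid examples.
Hmgcs1: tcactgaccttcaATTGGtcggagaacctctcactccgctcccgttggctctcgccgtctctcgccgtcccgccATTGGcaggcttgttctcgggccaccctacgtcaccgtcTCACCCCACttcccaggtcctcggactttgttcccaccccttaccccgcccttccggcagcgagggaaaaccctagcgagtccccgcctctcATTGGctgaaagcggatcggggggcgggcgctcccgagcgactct
Mvd: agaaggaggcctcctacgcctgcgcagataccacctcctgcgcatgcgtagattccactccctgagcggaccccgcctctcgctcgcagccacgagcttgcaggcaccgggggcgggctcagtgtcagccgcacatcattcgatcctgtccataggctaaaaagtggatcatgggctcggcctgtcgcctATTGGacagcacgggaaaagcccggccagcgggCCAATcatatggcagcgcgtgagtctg
Fasn: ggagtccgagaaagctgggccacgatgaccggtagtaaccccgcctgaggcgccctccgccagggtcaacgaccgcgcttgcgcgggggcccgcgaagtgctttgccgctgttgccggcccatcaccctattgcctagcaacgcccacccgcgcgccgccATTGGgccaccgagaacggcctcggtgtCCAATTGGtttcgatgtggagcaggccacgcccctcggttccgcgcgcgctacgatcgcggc
Acly: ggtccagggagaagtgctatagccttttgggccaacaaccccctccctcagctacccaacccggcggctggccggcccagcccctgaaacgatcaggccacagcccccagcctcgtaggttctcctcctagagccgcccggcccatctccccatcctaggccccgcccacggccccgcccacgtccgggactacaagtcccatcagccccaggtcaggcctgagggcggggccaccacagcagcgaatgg

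The Hmgcs1 window held 1 sterol regulatory element core and 3 CCAAT boxes. Mvd held 2 CCAAT boxes, Fasn 3, of which 1 pair overlaps, and Acly 0. The RefSeq table gave 34 such promoters for 26 of the 33 members, and 32851 promoters in all. Both strands were searched for exact letters, with N as any base, and matches were allowed to overlap. Variants of an element were therefore not counted. The set of all promoters was not limited to genes tested here. CCAAT was present in 21 of the 34 member promoters (61.8%) and in 33.8% of all promoters. The GC box (GGGCGG) was present in 25 of 34 (73.5%) and in 32.7% of all. The E box (CACGTG) was present in 5 of 34 (14.7%) and in 6.02% of all. The sterol regulatory element core was found in 1 of 34, that of Hmgcs1, and in 1.05% of all promoters. The direct repeat element of LXR was found in 0 of 34 and in 0.0152% of all. These matches describe letters in a window and are not evidence of binding.

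Library totals ran from 13665607 to 19555600 estimated counts, and 3 counts correspond to between 0.138 and 0.290 CPM, the counts scaled by each library's total and TMM factor. Ptprz1 itself had 0 counts in 11 libraries and 7 counts in WT IL-4 library 2, so its level does not check the genotype labels. All 10 macrophage markers examined, among them Csf1r and Adgre1, were detected in every library. Xist had between 232 and 618 CPM in the WT libraries and 0 in the KO libraries, so donor sex and genotype cannot be told apart, and the members Nsdhl and Ebp are X-linked. The summed level of 8 stromal cell markers was 852, 696 and 1350 CPM in the KO libraries numbered 2, between 273 and 352 in those numbered 1, and between 45.1 and 349 in WT libraries. Markers of adipocytes reached at most 0.929 CPM in sum and those of lymphocytes at most 1.33. Granulocyte markers summed to 221 CPM in KO LPS+IFNγ library 2 and to at most 39.3 elsewhere.

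In resting WT macrophages the members covered a wide range of levels. Per kilobase of exon, Acly, the citrate lyase that makes cytosolic acetyl-CoA, was the most abundant at 37.6 CPM per kb. It was followed by Insig1 at 25.4, the desaturase Fads1 at 23.4, Srebf2 at 22.1 and Hmgcs1 at 18.1 CPM per kb. At the other end stood Fads2 at 1.47, Elovl6 at 1.34, Scd1 at 0.897 and Acss2 at 0.409 CPM per kb. The fatty acid genes thus held both the highest and the lowest levels of the set. Of the stearoyl-CoA desaturases, Scd2 stood at 8.33 CPM per kb and Scd1 at 0.897. Exon lengths are from GENCODE M21 and cover all isoforms together, so these levels are approximate.

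**Figure D1:**
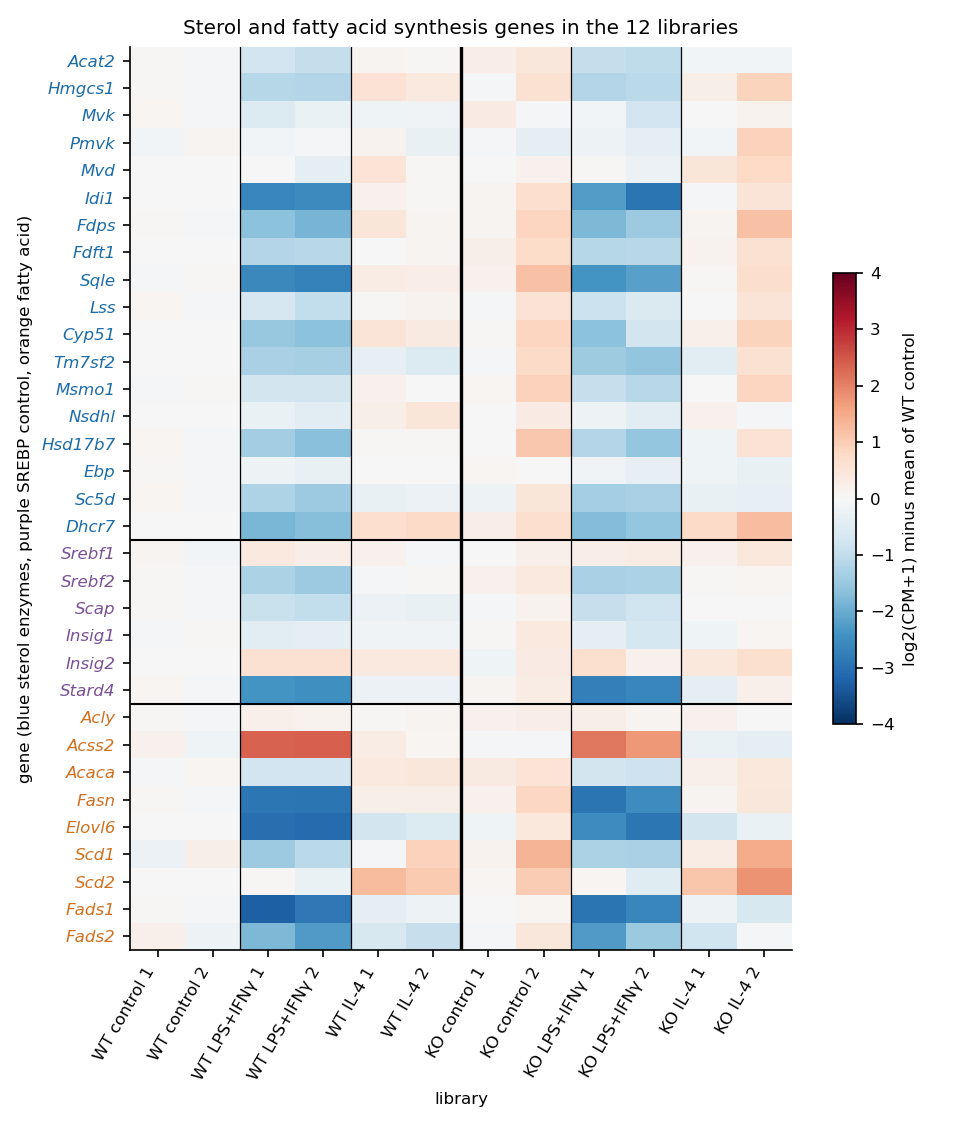
Level of each of the 33 genes (rows, grouped by arm) in each of the 12 libraries (columns), as log2(CPM+1) minus the mean of the 2 WT control libraries; blue is lower and red is higher. Most rows are blue in the 4 LPS+IFNγ libraries, Acss2 is red there, and many sterol rows are red in KO control library 2 and KO IL-4 library 2.

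LPS+IFNγ against control asks how a pro-inflammatory stimulus changes these genes. In WT macrophages 22 of the 33 members fell, 2 rose and 9 did not pass the test (edgeR quasi-likelihood, Benjamini-Hochberg adjusted p under 0.05 over 13525 genes). Over all genes tested, 54.3% were called, 27.0% lower and 27.4% higher. The members called lower were thus 66.7% of the set. In KO macrophages 24 fell, 1 rose and 8 did not pass, beside 53.3% of all genes called, 26.1% lower and 27.2% higher. The median log2 fold change of the members was -1.17 in WT and -1.55 in KO, and that of all genes tested was -0.048 and -0.013. In both genotypes 22 members fell, Acss2 rose, and 7 did not pass. The LPS+IFNγ libraries lay wholly below the control libraries for 26 members in WT (78.8%) and 27 in KO (81.8%), beside 42.5% and 37.1% of all genes tested. They overlapped for Pmvk and Mvd in both genotypes, for Scd2 in WT, and for Insig2 and Acly in KO. In bulk RNA, fewer cells of a type and less RNA per cell cannot be told apart.

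The arms differed in how evenly they moved. Of the 18 sterol and mevalonate enzymes, 12 fell in WT and 14 in KO and 0 rose, with medians of -1.20 and -1.57 and single log2 fold changes in WT between -2.88 and -0.094. Of the 9 fatty acid genes, 6 fell and 1 rose in each genotype, with medians of -1.84 in WT and -2.87 in KO and a range in WT from -5.61 to 2.62. Both of these medians are the value of Scd1, which had 36 counts in WT and 30 in KO after LPS+IFNγ. The share called lower in WT was 66.7% in both arms, and in KO 77.8% (sterol) and 66.7% (fatty acid). By library, medians of log2(CPM+1) minus the WT control mean were -1.44 and -1.09 (fatty acid) and -1.16 and -1.14 (sterol) in WT LPS+IFNγ. In KO LPS+IFNγ they were -1.26 and -1.30 (fatty acid) and -1.15 and -1.09 (sterol). Of the 6 genes of SREBP control and sterol transport, 4 fell in each genotype and 1 rose in WT, with medians of -0.68 and -0.86. The fatty acid arm held both the deepest falls and the 1 strong rise of the set. Acss2 rose under every scaling used. Scaling by library size alone moved the log2 fold change of all genes by about -0.50 in both genotypes. It called 29 members in WT and 31 in KO, but the share of all genes it called is not given here, so these counts have no background. The share of higher calls among all calls was 50.4% in WT and 51.0% in KO with TMM, and 24.9% and 24.8% with library size alone.

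**Figure D2:**
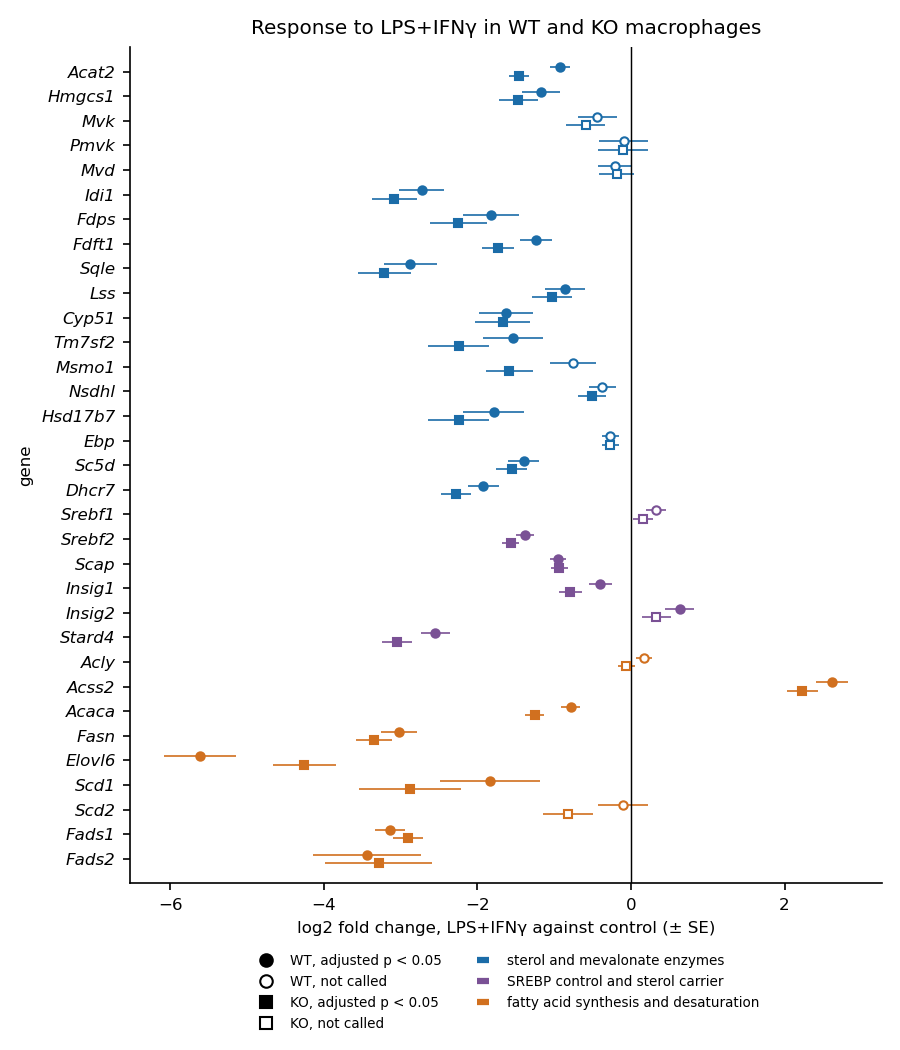
Log2 fold change of each gene under LPS+IFNγ against control, with its standard error, in WT (circles) and KO (squares); filled symbols passed the test and colours give the arm. Most filled symbols lie left of 0, Acss2 lies to the right in both genotypes, and Insig2 is filled in WT only.

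The early steps make isoprenoid units from acetyl-CoA and join them into squalene. Acat2, the thiolase that makes acetoacetyl-CoA, measured 17.1 and 16.2 CPM in WT control, 9.40 and 8.13 after LPS+IFNγ and 18.1 and 17.4 after IL-4. In KO cells Acat2 stood at 20.5 and 23.0 CPM in control, 8.10 and 7.65 after LPS+IFNγ and 15.2 and 15.5 after IL-4. Acat2 fell by a log2 change of -0.93 ± 0.13 in WT and -1.46 ± 0.13 in KO, and its groups did not overlap. Hmgcs1, the HMG-CoA synthase and the member whose promoter window held the sterol element core, measured 85.6 and 80.4 CPM in WT control, 37.5 and 36.4 after LPS+IFNγ and 125 and 109.7 after IL-4. In KO cells Hmgcs1 stood at 78.2 and 127 CPM in control, 35.9 and 38.4 after LPS+IFNγ and 97.7 and 155 after IL-4. Hmgcs1 fell in both genotypes, with log2 fold changes of -1.17 ± 0.25 in WT and -1.47 ± 0.25 in KO, and KO control library 2 was far above library 1. Idi1, which isomerises isopentenyl diphosphate, measured 53.5 and 53.3 CPM in WT control, 7.90 and 8.27 after LPS+IFNγ and 59.8 and 55.2 after IL-4. In KO cells Idi1 stood at 57.2 and 86.3 CPM in control, 10.6 and 6.10 after LPS+IFNγ and 50.4 and 76.1 after IL-4. Idi1 had log2 fold changes of -2.72 ± 0.29 in WT and -3.08 ± 0.30 in KO, or 6.60-fold and 8.46-fold lower levels. Fdps, the farnesyl diphosphate synthase, measured 44.4 and 42.4 CPM in WT control, 13.2 and 11.3 after LPS+IFNγ and 60.7 and 47.1 after IL-4. In KO cells Fdps stood at 46.9 and 80.2 CPM in control, 11.7 and 15.2 after LPS+IFNγ and 46.7 and 98.4 after IL-4. Fdps fell in both genotypes, with log2 fold changes of -1.82 ± 0.36 in WT and -2.25 ± 0.37 in KO. Fdft1, the squalene synthase, measured 18.9 and 18.7 CPM in WT control, 7.70 and 8.20 after LPS+IFNγ and 18.9 and 20.3 after IL-4. In KO cells Fdft1 stood at 22.1 and 32.0 CPM in control, 8.04 and 8.23 after LPS+IFNγ and 20.7 and 28.9 after IL-4. Fdft1 fell with log2 fold changes of -1.24 ± 0.21 in WT and -1.74 ± 0.21 in KO. The adjusted p of these 5 genes lay between 4.47e-05 and 0.00315 in WT and between 1.63e-05 and 8.91e-04 in KO. Exons of Fdft1 overlap those of the abundant antisense gene Ctsb by 774 bases, and because strand use in the counting is not given in the sources used here, the Fdft1 counts are uncertain. The kinase and decarboxylase steps between Hmgcs1 and Idi1 did not pass the test in either genotype. Their log2 fold changes were -0.44 ± 0.25 in WT and -0.59 ± 0.25 in KO for the kinase gene Mvk. They were -0.094 ± 0.32 in WT and -0.10 ± 0.32 in KO for the kinase gene Pmvk. For the decarboxylase gene Mvd they were -0.21 ± 0.22 in WT and -0.19 ± 0.22 in KO. With library size alone as the scaling, Mvk and Mvd were called lower in both genotypes.

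The later steps oxidise squalene, close the rings and finish the sterol. Sqle, the squalene epoxidase that opens this stage, measured 34.1 and 35.8 CPM in WT control, 4.97 and 4.54 after LPS+IFNγ and 43.5 and 42.6 after IL-4. In KO cells Sqle stood at 39.2 and 79.4 CPM in control, 5.81 and 7.07 after LPS+IFNγ and 36.2 and 57.0 after IL-4. Sqle had the lowest log2 fold change of the sterol arm in WT and KO, -2.88 ± 0.34 in WT and -3.21 ± 0.34 in KO, but without KO control library 2 the KO value was -2.62 and that of Idi1, -2.75, was lower. Lss, the lanosterol synthase, measured 25.2 and 23.0 CPM in WT control, 14.9 and 11.7 after LPS+IFNγ and 24.8 and 26.8 after IL-4. In KO cells Lss stood at 22.5 and 36.1 CPM in control, 12.8 and 15.9 after LPS+IFNγ and 23.8 and 34.9 after IL-4. Lss fell less, with log2 fold changes of -0.86 ± 0.26 in WT and -1.03 ± 0.26 in KO. Cyp51, the lanosterol demethylase, measured 53.5 and 52.7 CPM in WT control, 18.1 and 16.3 after LPS+IFNγ and 75.8 and 68.7 after IL-4. In KO cells Cyp51 stood at 55.2 and 97.3 CPM in control, 16.3 and 31.9 after LPS+IFNγ and 61.6 and 99.4 after IL-4. Cyp51 fell in both genotypes, with log2 fold changes of -1.63 ± 0.35 in WT and -1.67 ± 0.35 in KO, and KO LPS+IFNγ library 2 was well above library 1. Exons of Cyp51 overlap antisense exons of Akap9, which lay between 33.6 and 59.1 CPM, so its counts are uncertain too. Tm7sf2, a sterol reductase, measured 9.33 and 9.46 CPM in WT control, 3.27 and 3.19 after LPS+IFNγ and 7.37 and 6.04 after IL-4. In KO cells Tm7sf2 stood at 9.12 and 16.8 CPM in control, 2.90 and 2.52 after LPS+IFNγ and 6.83 and 14.9 after IL-4. Tm7sf2 had log2 fold changes of -1.54 ± 0.39 in WT and -2.25 ± 0.40 in KO, and its exons overlap those of Vps51 on the same strand. Hsd17b7, which reduces sterol ketones, measured 11.3 and 10.3 CPM in WT control, 3.54 and 2.71 after LPS+IFNγ and 11.2 and 11.3 after IL-4. In KO cells Hsd17b7 stood at 11.1 and 23.7 CPM in control, 4.25 and 3.001 after LPS+IFNγ and 9.46 and 16.7 after IL-4. Hsd17b7 fell with log2 fold changes of -1.79 ± 0.40 in WT and -2.24 ± 0.40 in KO, and without KO control library 2 the KO value was -1.59.

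Msmo1, the methylsterol monooxygenase, measured 73.1 and 79.4 CPM in WT control, 45.4 and 45.2 after LPS+IFNγ and 85.5 and 75.0 after IL-4. In KO cells Msmo1 stood at 80.0 and 144 CPM in control, 39.8 and 34.8 after LPS+IFNγ and 76.8 and 138 after IL-4. Msmo1 fell in KO with a log2 fold change of -1.59 ± 0.31, while the WT value of -0.75 ± 0.30 did not pass (adjusted p = 0.0582), and its genotype by stimulus interaction did not pass either (adjusted p = 0.991). Sc5d, a sterol desaturase, measured 55.7 and 50.5 CPM in WT control, 21.7 and 18.6 after LPS+IFNγ and 42.6 and 44.5 after IL-4. In KO cells Sc5d stood at 45.7 and 74.8 CPM in control, 20.1 and 21.1 after LPS+IFNγ and 42.6 and 41.9 after IL-4. Sc5d fell with log2 fold changes of -1.40 ± 0.20 in WT and -1.55 ± 0.20 in KO. Dhcr7, a terminal reductase of cholesterol synthesis, measured 24.9 and 25.03 CPM in WT control, 6.27 and 6.91 after LPS+IFNγ and 40.0 and 42.8 after IL-4. In KO cells Dhcr7 stood at 30.5 and 40.5 CPM in control, 6.82 and 7.84 after LPS+IFNγ and 43.3 and 60.4 after IL-4. Dhcr7 fell with log2 fold changes of -1.92 ± 0.20 in WT and -2.28 ± 0.20 in KO, and its LPS+IFNγ libraries lay close together in both genotypes. The 7 genes of the later steps that fell in both genotypes, Msmo1 apart, had adjusted p between 3.38e-05 and 0.0180 in WT and between 1.35e-05 and 0.00775 in KO. The X-linked dehydrogenase gene Nsdhl fell in KO (-0.51 ± 0.18) and did not pass in WT (-0.38 ± 0.18), and the isomerase gene Ebp did not pass in either (-0.27 ± 0.11 in WT and -0.27 ± 0.11 in KO). Neither Nsdhl nor Ebp had an interaction that passed.

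The control system showed mixed changes. Srebf2, which encodes SREBP-2, the main activator of the sterol genes, measured 164 and 153 CPM in WT control, 64.6 and 57.3 after LPS+IFNγ and 150.4 and 164 after IL-4. In KO cells Srebf2 stood at 178 and 209 CPM in control, 64.4 and 65.9 after LPS+IFNγ and 163 and 168 after IL-4. Srebf2 fell 2.60-fold in WT and 2.97-fold in KO (log2 fold changes -1.38 ± 0.11 in WT and -1.57 ± 0.11 in KO; adjusted p = 8.34e-06 and 4.56e-06). Stard4, a soluble sterol carrier and SREBP target, measured 54.0 and 48.1 CPM in WT control, 8.99 and 8.47 after LPS+IFNγ and 43.2 and 43.1 after IL-4. In KO cells Stard4 stood at 55.2 and 62.3 CPM in control, 6.82 and 7.45 after LPS+IFNγ and 38.8 and 58.6 after IL-4. Stard4 had the deepest fall of these 6 genes, with log2 fold changes of -2.55 ± 0.19 in WT and -3.04 ± 0.20 in KO (adjusted p = 4.91e-06 and 2.41e-06). The escort gene Scap fell with log2 fold changes of -0.95 ± 0.11 in WT and -0.93 ± 0.11 in KO (adjusted p = 6.04e-05 and 7.52e-05). Insig1, itself an SREBP target and one of the retention proteins, fell with log2 fold changes of -0.40 ± 0.15 in WT and -0.79 ± 0.15 in KO (adjusted p = 0.0491 and 0.00192). Its paralog Insig2 rose in WT by 0.63 ± 0.19 (adjusted p = 0.0181), while the KO value of 0.33 ± 0.19 did not pass (adjusted p = 0.175), and with library size alone these were 0.13 and -0.16, with neither called. WT libraries gave Insig2 at 24.3 and 25.3 CPM in control and 38.6 and 38.3 after LPS+IFNγ, and KO libraries at 22.1 and 31.3 and at 39.0 and 27.9, so the KO groups overlapped. Srebf1, which encodes both SREBP-1 isoforms, did not pass in either genotype (0.33 ± 0.13 in WT and 0.16 ± 0.13 in KO), and with library size alone its values turned to -0.17 and -0.34, of which the KO value passed (adjusted p = 0.0472). The isoforms share a gene row and were not separated.

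In the fatty acid arm, 6 genes of chain synthesis, elongation and desaturation fell in both genotypes, and the acetyl-CoA suppliers Acly and Acss2 did not. Fasn, the fatty acid synthase, measured 88.5 and 81.7 CPM in WT control, 10.5 and 10.4 after LPS+IFNγ and 101 and 101 after IL-4. In KO cells Fasn stood at 95.03 and 150.4 CPM in control, 10.4 and 13.9 after LPS+IFNγ and 92.0 and 116 after IL-4. Fasn fell 8.13-fold and 10.1-fold, with log2 fold changes of -3.02 ± 0.23 in WT and -3.34 ± 0.24 in KO. Acaca, the acetyl-CoA carboxylase that commits carbon to fatty acids, measured 44.1 and 49.1 CPM in WT control, 27.0 and 27.1 after LPS+IFNγ and 61.0 and 64.5 after IL-4. In KO cells Acaca stood at 59.5 and 68.8 CPM in control, 27.8 and 25.9 after LPS+IFNγ and 53.7 and 63.4 after IL-4. Acaca fell less, with log2 fold changes of -0.79 ± 0.12 in WT and -1.26 ± 0.12 in KO. Fads1, a front-end desaturase of polyunsaturated chains, measured 116 and 109.5 CPM in WT control, 10.9 and 14.7 after LPS+IFNγ and 87.7 and 98.2 after IL-4. In KO cells Fads1 stood at 113 and 119.6 CPM in control, 13.8 and 17.4 after LPS+IFNγ and 97.4 and 72.1 after IL-4. Fads1 had log2 fold changes of -3.14 ± 0.20 in WT and -2.90 ± 0.20 in KO and the smallest adjusted p of the set in WT (1.89e-06). Fads2, the partner desaturase of Fads1, measured 5.64 and 4.04 CPM in WT control, 0.681 and 0.203 after LPS+IFNγ and 2.73 and 2.06 after IL-4. In KO cells Fads2 stood at 4.65 and 6.97 CPM in control, 0.203 and 1.07 after LPS+IFNγ and 2.35 and 4.59 after IL-4. Fads2 fell with log2 fold changes of -3.43 ± 0.70 in WT and -3.28 ± 0.70 in KO, on 13 counts in WT and 14 in KO after LPS+IFNγ. The ratio of control to LPS+IFNγ counts was 11 (95% exact binomial interval 6.27 to 21) in WT and 10.4 (95% exact binomial interval 6.07 to 19.3) in KO.

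Elovl6, which elongates saturated chains, measured 8.51 and 8.77 CPM in WT control, 0.204 and 0.136 after LPS+IFNγ and 4.85 and 5.55 after IL-4. In KO cells Elovl6 stood at 7.60 and 11.9 CPM in control, 0.675 and 0.290 after LPS+IFNγ and 4.76 and 6.96 after IL-4. The WT LPS+IFNγ libraries held 3 and 2 counts, and the ratio of control to LPS+IFNγ was 50.9 (95% exact binomial interval 21.6 to 158) in WT and 18.8 (95% exact binomial interval 10.9 to 35.6) in KO, which covers counting error only. The fitted log2 fold changes of Elovl6 were -5.61 ± 0.47 in WT and -4.25 ± 0.41 in KO. Scd1, a stearoyl-CoA desaturase, measured 3.50 and 5.27 CPM in WT control, 0.954 and 1.49 after LPS+IFNγ and 4.07 and 8.99 after IL-4. In KO cells Scd1 stood at 4.84 and 12.7 CPM in control, 1.22 and 1.16 after LPS+IFNγ and 5.57 and 14.0 after IL-4. Scd1 fell with log2 fold changes of -1.84 ± 0.65 in WT and -2.87 ± 0.66 in KO (adjusted p = 0.0371 and 0.00507), and its control libraries were far apart in KO. The 5 other falling genes of this arm had adjusted p between 1.89e-06 and 0.00253 in WT and between 3.07e-06 and 0.00319 in KO. The Scd1 paralog Scd2 did not pass in either genotype, with log2 fold changes of -0.10 ± 0.32 in WT and -0.82 ± 0.32 in KO (adjusted p = 0.808 and 0.0557). Acly, the most abundant member per kilobase, held 206 and 191 CPM in WT control and 228 and 217 after LPS+IFNγ. Its log2 fold changes of 0.17 ± 0.11 in WT and -0.059 ± 0.11 in KO did not pass. The WT value turned to -0.33 with library size alone and then passed (adjusted p = 0.0286), and Acly was then called lower in KO too. Acss2, which makes acetyl-CoA from acetate, measured 4.76 and 3.55 CPM in WT control, 25.1 and 26.1 after LPS+IFNγ and 5.25 and 4.42 after IL-4. In KO cells Acss2 stood at 3.92 and 3.997 CPM in control, 21.2 and 16.0 after LPS+IFNγ and 3.28 and 2.98 after IL-4. Acss2 rose 6.15-fold in WT and 4.70-fold in KO, with log2 fold changes of 2.62 ± 0.20 in WT and 2.23 ± 0.20 in KO (adjusted p = 6.22e-06 and 1.70e-05), and its groups did not overlap. Exons of Acss2 overlap antisense exons of Ggt7 and Gss, and Gss lay between 12.1 and 22.3 CPM.

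**Figure D3:**
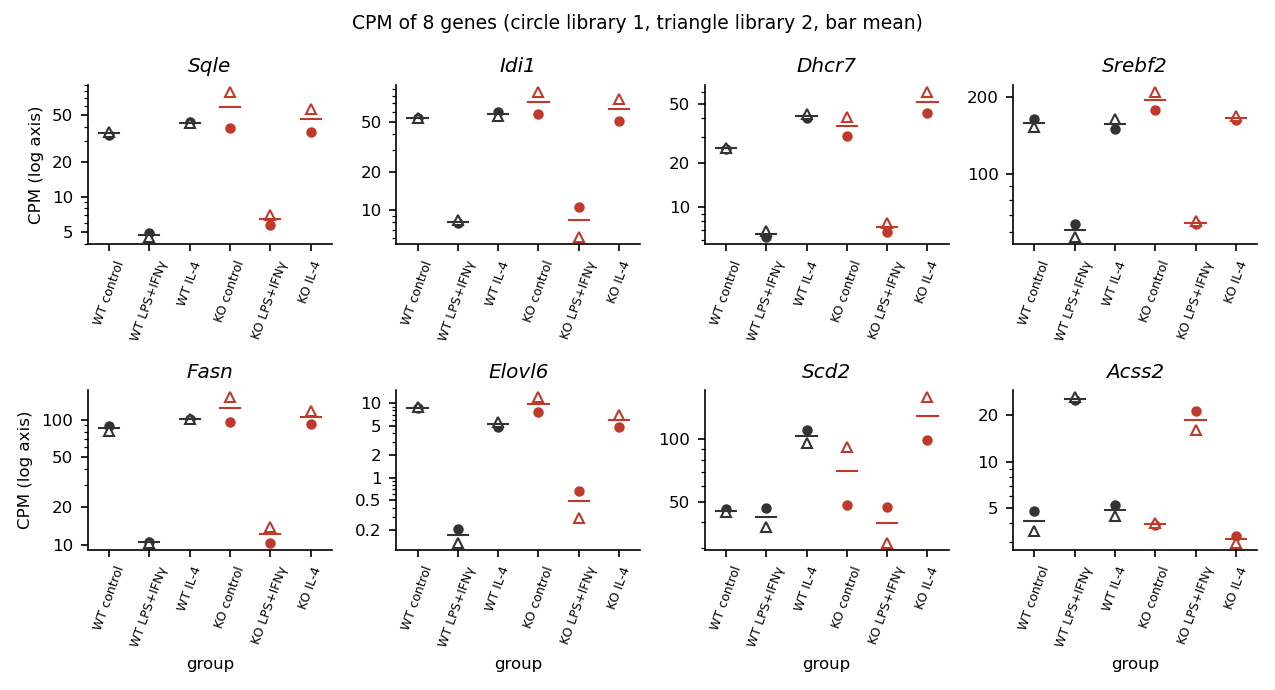
CPM of 8 genes on log axes in the 6 groups, with WT in grey and KO in red; circles are library 1, triangles library 2 and bars the group mean. Sqle, Idi1, Dhcr7, Srebf2, Fasn and Elovl6 are lowest in both LPS+IFNγ groups, Acss2 is highest there, and Scd2 is highest after IL-4.

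Leaving out each of the 12 libraries in turn, 20 of the 24 WT calls and 23 of the 25 KO calls held every time. In WT, Scd1 was lost without any 1 of the control or LPS+IFNγ libraries of WT, or without either KO LPS+IFNγ library (adjusted p 0.0225 to 0.179). Insig1 was lost without any 1 of the 6 WT libraries (0.0326 to 0.185), and Insig2 without any 1 of the WT control or LPS+IFNγ libraries (0.00643 to 0.0933). Lss was lost in WT without control library 1 or LPS+IFNγ library 2 (0.00739 to 0.118), and in KO without control library 2 or LPS+IFNγ library 1 (0.00209 to 0.0656). Nsdhl was lost in KO without any 1 of the WT control or LPS+IFNγ libraries, KO control library 2 or KO LPS+IFNγ library 2 (0.0227 to 0.242). Single libraries also moved the size of some called values. Without KO control library 2, Scd1 stood at -2.02 in KO. Without KO LPS+IFNγ library 1, Elovl6 stood at -5.05 and Fads2 at -2.45, and without library 2 Fads2 stood at -4.80. In WT, Fads2 stood at -4.53 without LPS+IFNγ library 1 and at -2.82 without library 2.

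Of 91 tested genes around these pathways, 36.3% rose and 22% fell after LPS+IFNγ in WT, and 31.9% and 28.6% in KO, beside 27.4% and 27.0% of all genes in WT and 27.2% and 26.1% in KO. In WT, 8 of 15 tested genes of SREBP processing and degradation rose and 2 fell, and in KO 6 rose and 3 fell. Among them were the ubiquitin ligase gene Rnf145, with log2 fold changes of 1.72 in WT and 1.36 in KO, Nploc4 (1.20 and 0.94), and Mbtps1, which encodes the site 1 protease that cuts SREBPs (-0.93 and -0.95). Of 12 tested LXR receptors and targets, 3 rose and 3 fell in each genotype, close to the shares over all genes, with the receptor gene Nr1h3 at 1.95 and 1.91, Arl4c at -1.97 and -2.23, Scarb1 at -1.89 and -1.76, and the sterol exporter Abca1 at 1.64 and 1.77. Of 13 other isoprenoid and oxysterol genes, 3 rose and 3 fell in each genotype, again close to the shares over all genes. The oxysterol hydroxylase gene Ch25h had 0 counts in both WT control libraries and 15.3 and 13.7 CPM after LPS+IFNγ, and in KO 0.276 and 0.390 CPM and then 10.5 and 214. Cyp27a1, another oxysterol hydroxylase, fell with log2 fold changes of -3.89 and -3.74, and Nceh1, a cholesteryl ester hydrolase, with -1.66 and -2.12.

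Of 14 genes of sterol uptake and transport, 5 rose and 1 fell in WT, and 6 rose and 4 fell in KO. The outer mitochondrial protein gene Tspo had log2 fold changes of 3.45 and 3.57, the lipoprotein receptor gene Vldlr 3.10 and 2.59, and the lysosomal sterol transporter gene Npc2 1.92 and 1.71, while Lipa, the lysosomal acid lipase, fell (-1.58 and -2.13). Of 11 genes that supply citrate, acetyl-CoA and NADPH, 4 rose and 2 fell in WT, and 2 rose and 3 fell in KO. The isocitrate dehydrogenase genes Idh2 (-3.10 and -2.57) and Idh1 (-1.82 and -1.71) fell, and G6pdx, the entry enzyme of the pentose phosphate pathway, rose (1.22 and 1.22). Of 12 other elongation, desaturation and lipogenic genes, 2 rose and 6 fell in WT, and 0 rose and 6 fell in KO, led by Elovl7 (-3.05 and -2.71), Hacd1 (-2.22 and -1.97) and Mid1ip1 (-1.41 and -0.93) in WT. Of 14 genes that use acyl-CoA or build glycerolipids, 8 rose and 3 fell in WT and 9 rose and 4 fell in KO. The acyl-CoA synthetase gene Acsl1 rose (4.55 and 4.501), as did Dgat2, which completes triglycerides (2.46 and 3.16), and the lipase gene Mgll (-4.23 and -3.57) and the phosphatidate phosphatase gene Lpin1 (-2.79 and -2.81) fell. Medians of these 7 lists in WT ran from -0.86 for the other fatty acid genes to 0.40 for the glycerolipid genes, beside -1.17 for the 33 members.

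IL-4 against control asks how an alternative activation stimulus changes the same genes, with the same control libraries as before. In WT, 1 of the 33 members rose and 0 fell, beside 9.04% of all genes called, 4.92% higher and 4.12% lower. In KO, 0 rose and 1 fell, beside 6.86% of all genes called, 3.52% higher and 3.34% lower. Unadjusted p was under 0.05 for 5 members in WT and 10 in KO, beside 3460 and 3308 of the 13525 genes tested. DESeq2 called 3 and 1 members, and its share over all genes is not given here. The median log2 fold change was 0.074 in WT and -0.13 in KO. Dhcr7 was the member that rose in WT, from 24.9 and 25.03 to 40.0 and 42.8 CPM (log2 fold change 0.73 ± 0.18; adjusted p = 0.0385). In KO Dhcr7 moved from 30.5 and 40.5 to 43.3 and 60.4 CPM and did not pass (0.55 ± 0.18; adjusted p = 0.0989). The groups did not overlap in either genotype, which adds little with 2 libraries a side. Acat2 was the member that fell in KO, from 20.5 and 23.0 to 15.2 and 15.5 CPM (log2 fold change -0.50 ± 0.13; adjusted p = 0.0462), and its WT change was 0.092 ± 0.13. Both calls were lost when single libraries were left out, Dhcr7 without any 1 of the 6 WT libraries (adjusted p 0.0211 to 0.219) and Acat2 without any 1 library other than the KO LPS+IFNγ pair (0.0402 to 0.153).

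Scd2 had the largest positive IL-4 change of the set in both genotypes. WT libraries held 46.1 and 44.9 CPM in control, 47.0 and 37.8 after LPS+IFNγ and 111 and 95.9 after IL-4, and KO libraries 48.6 and 92.4, 47.6 and 31.9 and 99.9 and 159. The log2 fold changes under IL-4 were 1.18 ± 0.32 in WT and 0.88 ± 0.32 in KO, and neither passed (adjusted p = 0.0505 and 0.127). The control and IL-4 groups did not overlap, which adds little with 2 libraries a side. Acaca was near the threshold in WT (0.43 ± 0.12; adjusted p = 0.0518) and had -0.13 ± 0.12 in KO. Fads2 had the lowest IL-4 values in WT (-1.01 ± 0.59; adjusted p = 0.324), with -0.74 ± 0.57 in KO. Elovl6 had values of -0.73 ± 0.31 in WT and -0.74 ± 0.31 in KO, and neither passed (adjusted p = 0.182 and 0.184). The fits that follow used fewer libraries. The share of all genes that each called is not given here, so their counts have no background. When only the 4 WT control and IL-4 libraries were fitted, 10 members were called. Hmgcs1, Sqle, Cyp51, Dhcr7, Insig2, Acaca, Fasn and Scd2 were higher, and Scap and Elovl6 lower. The same 10 were called in WT when the 3 KO libraries numbered 2 were left out, for example Scd2 (adjusted p = 6.08e-04) and Hmgcs1 (0.00569). KO calls were 0 when only KO control and IL-4 libraries were fitted, and 4 when the libraries numbered 2 were left out, with Dhcr7, Insig2 and Scd2 higher and Stard4 lower.

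**Figure D4:**
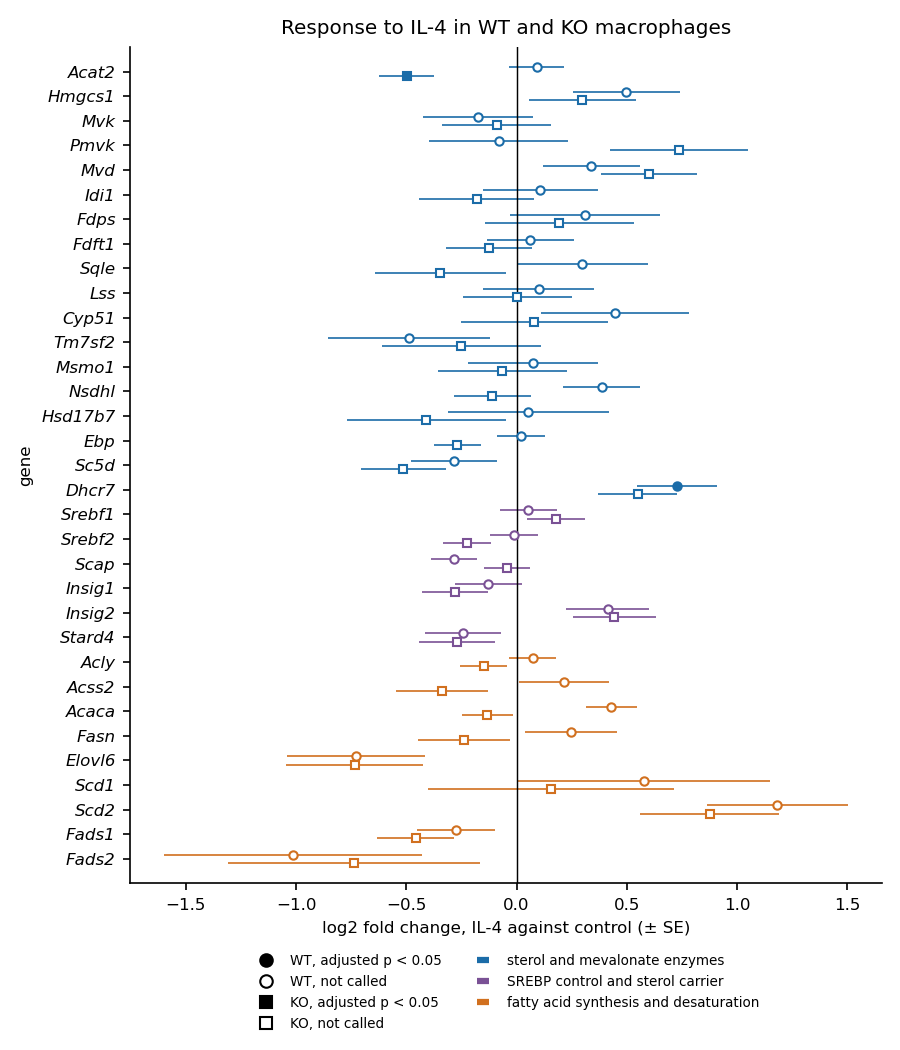
Log2 fold change of each gene under IL-4 against control, with its standard error, in WT (circles) and KO (squares); filled symbols passed the test and colours give the arm. Dhcr7 in WT and Acat2 in KO are the filled symbols, and Scd2 lies farthest to the right.

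Under IL-4, 9 of the 91 companion genes were called in WT (9.89%, beside 9.04% of all genes) and 7 in KO (7.69%, beside 6.86%). Of 12 LXR receptors and targets, 1 rose and 4 fell in WT, and 1 rose and 3 fell in KO. The sterol exporter gene Abcg1 rose (0.92 in WT and 0.96 in KO) and Smpdl3a fell (-0.51 and -0.66). Mylip, whose product degrades lipoprotein receptors, fell in WT (-1.20) and had -0.50 in KO, which did not pass. Lrp8, a lipoprotein receptor, fell in both (-1.09 and -1.43), as did Hacd2 (-0.62 and -0.74) and Lpin2 (-0.87 and -0.82). Each was the 1 gene called in its list. Cs, the citrate synthase, rose in WT (0.37) and did not pass in KO (0.14). In the SREBP machinery and the isoprenoid and oxysterol list, 0 genes were called in either genotype by edgeR.

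KO against WT asks whether the set differs between the genotypes. Donor sex differs with genotype in these libraries, so an effect of Ptprz1 loss cannot be told apart from one of sex. In control macrophages 0 of the 33 members were called by edgeR, beside 0.0739% of all genes, 0.0296% higher and 0.0444% lower. Under LPS+IFNγ 0 were called beside 0.0591%, with 0.0370% higher and 0.0222% lower. Under IL-4 0 were called beside 0.0665%, with 0.0296% higher and 0.0370% lower. Averaged over the 3 treatments 0 were called beside 0.170%, with 0.0444% higher and 0.126% lower. DESeq2 also called 0 members in each, and its share over all genes is not given here. Unadjusted p fell under 0.05 for 7 members at rest, for 2 in LPS+IFNγ cells, for 3 in IL-4 cells and for 7 in the mean. Among the 13525 genes tested, it did so for 1011, 1119, 453 and 1532. In control, the smallest p belonged to Acaca (0.46 ± 0.12; adjusted p = 0.506), Acat2 (0.38 ± 0.13; 0.666) and Dhcr7 (0.51 ± 0.18; 0.666). After LPS+IFNγ they belonged to Elovl6 (1.54 ± 0.61; 0.583), Acss2 (-0.46 ± 0.19; 0.596) and Stard4 (-0.30 ± 0.20; 0.704). After IL-4 they belonged to Acss2 (-0.63 ± 0.21), Scap (0.29 ± 0.11) and the X-linked gene Ebp (-0.26 ± 0.11), each with adjusted p = 0.980. In the mean they belonged to Acss2 (-0.38 ± 0.12; 0.386), Dhcr7 (0.33 ± 0.11; 0.391) and Fdft1 (0.30 ± 0.12; 0.415). The values of Acss2 in KO lay below those of WT after either stimulus, with no overlap between 2 and 2 libraries, but neither difference passed.

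The uncalled differences were mostly higher in KO in control and after IL-4. In control, 31 of 33 members had a positive KO minus WT log2 difference, beside 6913 of the 13525 genes tested. The median was 0.28, beside 0.007 for all genes. By arm it was 0.40 for the sterol enzymes, 0.16 for the control genes and 0.26 for the fatty acid genes. After LPS+IFNγ 20 of 33 were positive (median 0.030), not far from the share of all genes, 6943 of 13525. After IL-4 26 of 33 were positive (median 0.17), beside 6883 of all genes. The 2 KO control libraries differed from each other by more than these medians. Library 2 was above library 1 in 30 of 33 members, with a median log2 difference of 0.48, and of 0.62 in the sterol arm. Hsd17b7 had 11.1 and 23.7 CPM in them, Sqle 39.2 and 79.4 and Scd1 4.84 and 12.7. In KO IL-4 cells library 2 was higher in 26 of 33, with a median of 0.46. WT control, LPS+IFNγ and IL-4 had 10, 10 and 15 of 33 higher in library 2, and KO LPS+IFNγ 15. The stromal marker sum was higher in library 2 than in library 1 in all 6 groups. In KO control it was 852 against 352 CPM and in KO IL-4 1350 against 336 CPM, where the median sterol differences of library 2 from library 1 were 0.62 and 0.56. In KO LPS+IFNγ it was 696 against 273 CPM, with a sterol difference of -0.11. In WT control it was 349 against 65.0 CPM, in WT LPS+IFNγ 177 against 45.1 and in WT IL-4 201 against 51.2, with sterol differences of -0.026, -0.10 and -0.044. The 6 groups differ in the size of their stromal sums and in stimulus, and the part of these markers in the member levels was not tested.

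Without the 3 KO libraries numbered 2, the median KO minus WT log2 difference in control was 0.059 in the sterol arm and 0.090 in the fatty acid arm. After IL-4 the sterol median was then -0.17, where it had been 0.20, and the fatty acid median -0.15, where it had been 0.043. By library, the sterol arm's median of log2(CPM+1) minus the WT control mean was 0.062 and 0.64 in KO control and -0.002 and 0.60 in KO IL-4. It was -1.16 and -1.14 in WT LPS+IFNγ and -1.15 and -1.09 in KO LPS+IFNγ. After LPS+IFNγ all 4 libraries thus lay close together, whichever their genotype.

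**Figure D5:**
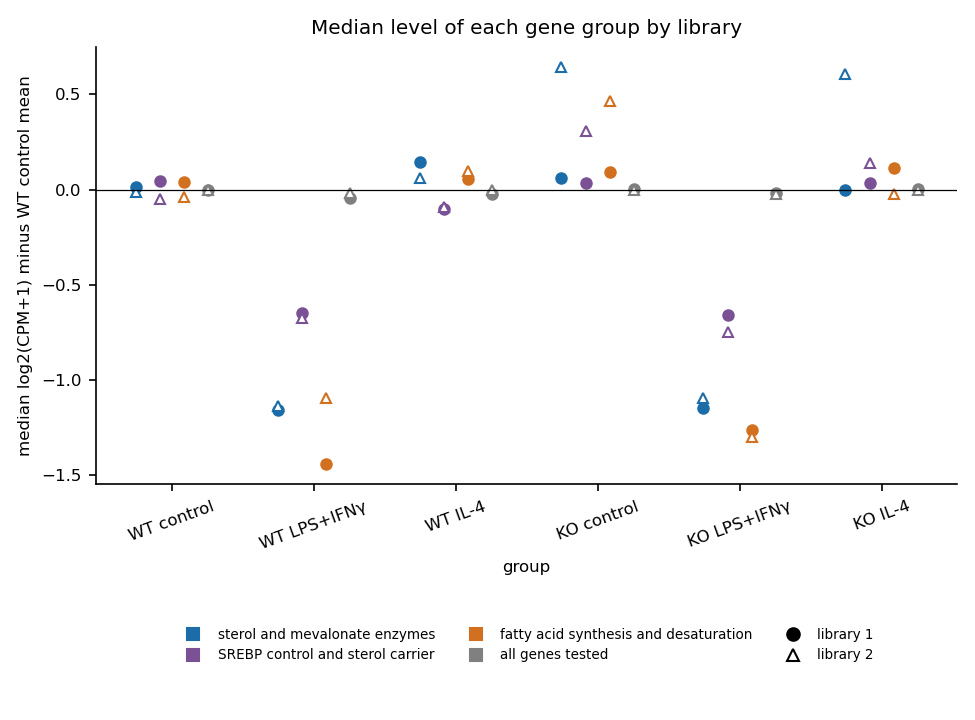
Median over the genes of each arm, and over all genes tested, of log2(CPM+1) minus the WT control mean, by group; filled circles are library 1 and open triangles library 2. The sterol and fatty acid medians are low in all LPS+IFNγ libraries, and the sterol medians of KO control and KO IL-4 library 2 lie apart from those of library 1.

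The genotype by stimulus interactions ask whether the response itself differed between the genotypes, which again cannot be told apart from donor sex. For LPS+IFNγ and for IL-4, 0 of 33 members were called by edgeR, beside 0% of all genes. DESeq2 also called 0 members but did call some other genes, and its share over all genes is not given here. Unadjusted p was under 0.05 for 2 members in each, beside 476 of 13525 genes for LPS+IFNγ and 604 for IL-4. For LPS+IFNγ the smallest p belonged to Acat2 (interaction log2 -0.53 ± 0.18), Acaca (-0.47 ± 0.17) and Elovl6 (1.36 ± 0.68), with adjusted p = 0.991 from edgeR for each. For IL-4 they belonged to Acaca (-0.56 ± 0.17), Acat2 (-0.59 ± 0.18) and Nsdhl (-0.50 ± 0.25), with edgeR adjusted p = 0.9999 for each. The LPS+IFNγ interaction was negative for 28 of 33 members, with a median of -0.30, beside 6651 of 13525 genes. Without the KO libraries numbered 2 the sterol arm's median moved from -0.32 to -0.008. With 2 libraries per group, a p that misses the threshold does not show that the genotypes respond alike. All 7 companion lists held 0 genes called by edgeR in each comparison of KO with WT.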

How the data were processed

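RNA sequencing of 12 libraries in 6 groups was analysed from 1 table of estimated counts per Ensembl gene. The authors deposited whole numbers, taken here as rounded expected counts. Per the submitters' processing notes, FastQC 0.11.9, Salmon 1.10.2, R 4.4.1 and DESeq2 1.45.3 were used with build GRCm39, with no role given. The sources used here do not give the transcript annotation or the strand setting. Every sample column matched a sample title, with 0 left over. Symbols were found for 92% of 55891 identifiers in GENCODE M21 (GRCm38), whose coordinates were not converted.

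In R 4.3.3, edgeR 4.0.16 filtered low counts with filterByExpr, leaving 13525 genes, scaled libraries by TMM (factors from 0.756 to 1.16) and fitted all 12 libraries in a quasi-likelihood model of the 6 group means, with 6 residual degrees of freedom. All tests were two-sided, over 10 contrasts. P-values were adjusted by Benjamini-Hochberg across these genes, and 0.05 was the threshold. The ± values beside log2 fold changes are standard errors derived from the F statistics. DESeq2 1.42.0 was an alternative. The scripts were tested on simulated counts. Totals set the precision, and intervals and floors of 3 counts cover counting error only. Libraries of a group differed by more than sampling noise, and more so in KO. The mean chi-square per gene between libraries of a group covered genes with at least 20 counts. It was 7.10 in WT control, 7.81 in WT LPS+IFNγ and 15.6 in WT IL-4. In the KO groups, in the same order, it was 48.4, 53.8 and 54.9. The model shared the spread of a gene across all groups, so the ± values do not show this difference between genotypes.

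The members, arms and companion lists were chosen with earlier results of these data known. Values in every library were given for members called under a stimulus with an absolute log2 fold change of at least 1 in either genotype. The 3 members with the smallest p were given for each genotype and interaction contrast, and up to 3 called genes for each companion list and contrast. Others named were chosen after their values were seen. Promoter sequences are from RefSeq (GRCm38.p6), with 26 of 33 members matched.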

Additional observations from a re-analysis of the deposited data

Results flagged for a closer look

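In 5 comparisons a member's libraries lay wholly above those of the other group in 1 setting and wholly below in another. Such a pattern was seen for 1 of 33 members (3.03%) and 2.91% of all genes tested for IL-4 in the 2 genotypes. For KO against WT it was seen for 3 members (9.09%) and 4.52% of all genes between control and LPS+IFNγ, and for 1 member (3.03%) and 5.43% of all genes between control and IL-4. Acat2 appears in 3 of the 5. Its IL-4 value was 0.092 ± 0.13 in WT, which did not pass (edgeR adjusted p = 0.711), and -0.50 ± 0.13 in KO, which did (adjusted p = 0.0462), and the interaction was -0.59 on the log2 scale (edgeR adjusted p = 0.9999). The same interaction value, -0.59, describes KO against WT, at 0.38 ± 0.13 in control and -0.21 ± 0.13 after IL-4. After LPS+IFNγ, the KO minus WT value of Acat2 was -0.15 ± 0.14, with an interaction of -0.53 (adjusted p = 0.991). Acat2 held 17.1 and 16.2 CPM in WT control, 20.5 and 23.0 in KO control, 18.1 and 17.4 in WT IL-4 and 15.2 and 15.5 in KO IL-4.

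For Msmo1 the KO minus WT value was 0.56 ± 0.30 in control and -0.28 ± 0.30 after LPS+IFNγ, with an interaction of -0.84 (edgeR adjusted p = 0.991). For Stard4 the values were 0.20 ± 0.17 and -0.30 ± 0.20, with an interaction of -0.50 (edgeR adjusted p = 0.991). None of the KO minus WT values passed. By edgeR, 0 of these interactions passed after adjustment over all genes, and these comparisons share control libraries.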

How the results depend on the processing

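With library size alone, 2 uncalled LPS+IFNγ values turned from positive to negative and passed, -0.33 for Acly in WT and -0.34 for Srebf1 in KO, and no called member changed sign under any alternative run. Of the alternative values for single members, 1304 kept their side of the threshold, 50 lost a call and 29 gained one. Of those for member counts and arm medians, 441 stayed within their limits and 68 moved. The limit was a set ratio for counts, and for medians the pooled SD of library medians (0.245 sterol, 0.155 fatty acid). Many of these values could hardly move. They include members far from the threshold, counts of 0, and runs without a library outside the contrast. The totals therefore do not measure robustness. With library size alone, the LPS+IFNγ medians were -1.70 (sterol) and -2.33 (fatty acid) in WT, and -2.06 and -3.36 in KO. WT IL-4 calls, 1 in the report, were 3 with DESeq2 size factors, 3 with DESeq2, 2 with no filter on low counts and 10 with the libraries of the contrasted groups only. KO IL-4 calls, also 1, were 0 with the contrasted groups only. The cause of these differences was not tested, and the share of all genes called in each run is not given here. Leaving out all 3 KO libraries numbered 2 was chosen after seeing the data. It gave 10 WT and 4 KO IL-4 calls and KO LPS+IFNγ medians of -1.30 (sterol) and -2.03 (fatty acid). It gave KO minus WT medians of 0.059 and 0.090 in control, -0.17 and -0.15 after IL-4, and 0.047 for the fatty acid arm in the mean over treatments. Its LPS+IFNγ interaction medians were -0.008 (sterol) and -0.15 (fatty acid).

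Leaving out 1 library at a time, IL-4 calls ran from 0 to 3 in WT and from 0 to 2 in KO. Fatty acid medians ran from -2.19 to -1.52 (LPS+IFNγ, WT), -2.95 to -2.02 (LPS+IFNγ, KO), 0.019 to 0.30 (IL-4, WT), 0.13 to 0.53 (KO minus WT, control), -0.13 to 0.20 (KO minus WT, IL-4) and -0.57 to -0.15 (IL-4 interaction). Sterol medians ran from -1.91 to -1.18 (LPS+IFNγ, KO), -0.35 to 0.22 (IL-4, KO), 0.094 to 0.66 (KO minus WT, control), -0.15 to 0.45 (KO minus WT, IL-4), -0.58 to -0.038 (LPS+IFNγ interaction) and -0.48 to 0.11 (IL-4 interaction). Where this left 1 library in a group, that library was assumed to vary like the other groups.

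The labels do not say what the library numbers share, and 2 numbers are too few for the data to settle a pairing. Differences between library 2 and library 1 correlated, across genes, above 0.1 in 14 of 15 pairs of groups. The r was 0.20 to 0.43 between WT groups and 0.21 to 0.38 between KO groups, and the lowest was -0.019, between WT and KO IL-4. With the number as a replicate block, WT IL-4 called 3 members, LPS+IFNγ called 26 in each genotype, and KO IL-4 called 1. The share of all genes called with the block is not given here, so these counts have no background. The added calls were Msmo1 (adjusted p = 0.0420) and Ebp (0.0398) under LPS+IFNγ in WT, Ebp in KO (0.0386), Acaca (0.0362) and Scd2 (0.0457) under IL-4 in WT, and Dhcr7 in KO (0.0383), where Acat2 was lost (0.0504). The lowest members limit precision most, since Elovl6 rests on 3 and 2 counts after LPS+IFNγ in WT.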
